A study of Homo sapiens with 6 samples.

Results

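The S100 proteins and annexins are calcium-binding protein families, and their genes were followed here in LM3 cells with stable knockdown of ZNF706. Members were every gene of the deposited table whose symbol was S100 followed by a letter, with or without a number, or ANXA followed by a number. This rule found 28 of 33007 genes, namely 16 S100 genes and 12 annexins. Of these, 25 passed the filter on low counts, 14 S100 genes and 11 annexins. The filter kept genes with enough counts in at least 3 samples, whichever group they belonged to.

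LM3 is an established human hepatocellular carcinoma (HCC) cell line, labelled as wild-type (WT) liver-derived HCC cells in both groups. RNA-seq was done on 3 vector control samples and on 3 samples of cells with ZNF706 stably knocked down. The knockdown came from a lentiviral pLKO.1 vector that expresses a short hairpin RNA against ZNF706, with puromycin selection of the infected cells, and the controls are described as carrying the matching vector. Which hairpin these samples carried is not given in the sources used here, and neither is whether the 3 samples of a group were separate cultures, so the p-values measure the spread between these samples, which may be technical.

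The total counts were 62684076, 64713764 and 63054445 for the controls, against 68548419, 65861994 and 69057423 with knockdown. ZNF706 (ENSG00000120963) had a level of 51.9, 55.1 and 54.7 CPM in the control samples and 33.5, 30.8 and 32.8 CPM in the knockdown samples, where CPM is the count scaled to library size with TMM factors. The groups did not overlap, and the log2 fold change was -0.73 (SE 0.050, edgeR quasi-likelihood adjusted p = 3.7e-05). The labels were also set beside markers of cell types. The simple epithelial keratins KRT8 and KRT18 had mean control levels of 1537 and 963 CPM, and the epithelial surface marker EPCAM had 0.38 CPM. ALB, the most abundant of 10 hepatocyte markers, had 3.05, 14.1 and 14.4 CPM in the control samples and 8.37, 9.47 and 1.97 CPM in the knockdown samples, so hepatocyte markers were present at low and uneven levels.

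S100 proteins are small EF-hand proteins of vertebrates that pair as dimers and, once calcium is bound, open a surface that grips other proteins. Some act inside the cell on the cytoskeleton and on annexins, and others are released and bind receptors such as AGER (RAGE) and TLR4. Annexins bind acidic phospholipids in the presence of calcium and take part in membrane repair, vesicle traffic and membrane organisation. S100A10 with ANXA2 and S100A11 with ANXA1 are well-known pairs of the families, and many S100 genes lie in a cluster on chromosome 1.

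With ZNF706 knockdown, 8 members passed an adjusted p below 0.05 in edgeR's quasi-likelihood test over 18390 genes. S100A16 was higher, and S100P, S100A9, S100A8, ANXA11, ANXA1, ANXA5 and ANXA2 were lower. Of the 14 tested S100 genes, 1 was called higher, beside 10.4% of all tested genes, and 3 were called lower, beside 12.4% of all tested genes. Of the 11 tested annexins, 0 were called higher and 4 were called lower, and those 4 were among the 7 annexins with the highest FPKM (a level scaled to gene length and library size). By the criteria of the study, taken as an unadjusted p below 0.05 with a log2 fold change of 0.3 or more in either direction, 2 S100 genes (S100A16 and S100A3) and 1 annexin (ANXA10) were higher, beside 9.61% of all tested genes. By the same criteria 3 S100 genes and no annexin were lower, beside 5.88% of all tested genes. The median log2 fold change was 0.02 over the tested S100 genes, -0.06 over the tested annexins and 0.0095 over all tested genes.

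The balance of calls depended on scaling. With TMM, 45.5% of the calls over all genes were higher, and with library size alone 64.4% were. With library size alone 3 S100 genes were called higher and 2 lower, and 4 annexins were called higher and 2 lower, beside 2742 higher and 1518 lower of 18390 genes. In that setting the median of all genes moved by 0.054 on the log2 scale, and none of the 25 tested members changed the sign of its log2 fold change. In bulk samples, fewer cells that express a gene and less RNA per cell cannot be told apart.

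**Figure D1:**
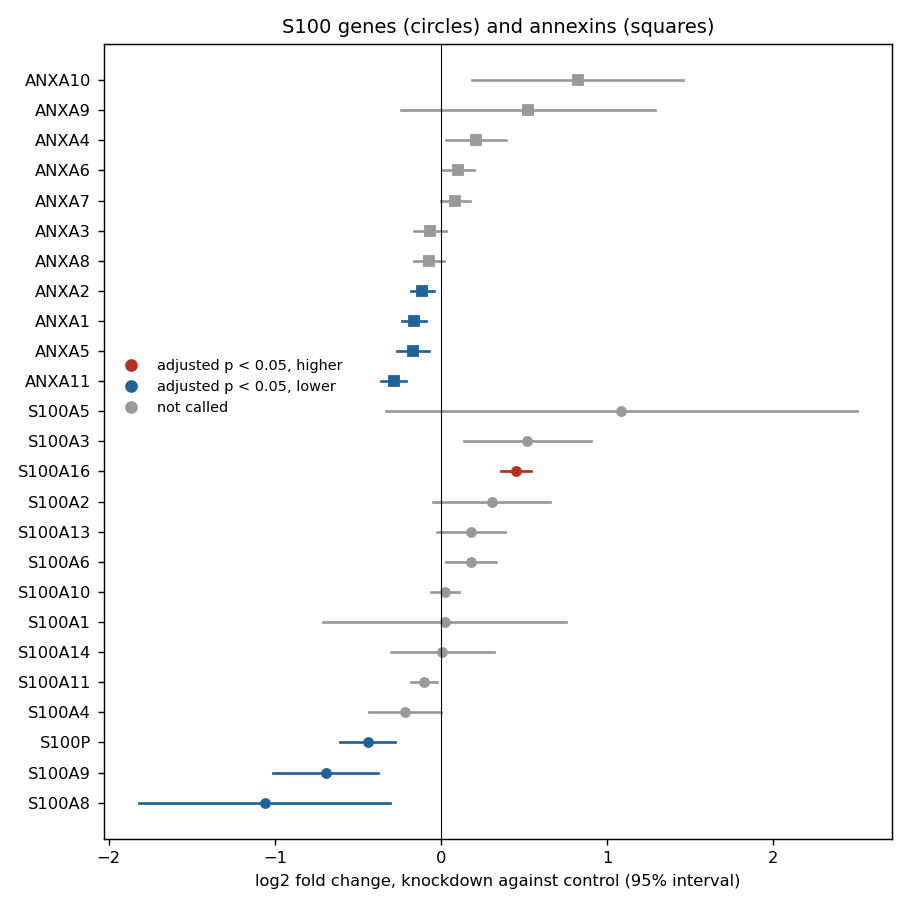
Log2 fold change of each tested member, knockdown against control, with its 95% interval, squares for annexins and circles for S100 genes. S100A16 at 0.45 is the called rise, and the called falls run from -0.11 for ANXA2 to -1.06 for S100A8, while weakly expressed genes such as S100A5 have wide intervals.

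The stretches just upstream of a RefSeq start of the 8 called members are shown because a TATA box, the core promoter element read by TATA-binding protein, sat there in some of them and not in others. Each runs from 35 to 6 bases before the RefSeq gene start nearest to the 5′ end in the deposited table (build GRCh38.p14), 5′ to 3′ on the gene's own strand, and the capitals mark TATAAA. For ANXA2, ANXA11 and ANXA5 that start lies 4897, 35 and 15 bases inside the gene as placed in the deposited table. The stretches of ANXA2 and ANXA11 thus lie within those gene coordinates.
S100A16, chr1:153613143-153613172, minus strand: tccctttaacaagggcccaaccccagggcc
S100P, chr4:6693843-6693872, plus strand: gctgcctTATAAAgcaccaagaggctgcca
S100A9, chr1:153357819-153357848, plus strand: gctgccTATAAAtgccgagcctgcacagct
S100A8, chr1:153391079-153391108, minus strand: aaccgcTATAAAaaggagctgcctctcagc
ANXA1, chr9:73151830-73151859, plus strand: atccTATAAAatcagaagcccaagtctcca
ANXA2, chr15:60397992-60398021, minus strand: cgggTATAAAagccccacccaggccagccg
ANXA5, chr4:121696986-121697015, minus strand: ggggtggggccgctggcgtttccgttgctt
ANXA11, chr10:80205543-80205572, minus strand: gcactgcctctggcacctggggcagccgcg

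The 3 S100 genes that fell carried TATAAA in this stretch, as did ANXA1 and ANXA2, and S100A16, ANXA5 and ANXA11 did not. The same stretch was then searched on both strands before every RefSeq start, not only the nearest. TATAAA lay there at 8 of 36 starts of the 25 members matched to RefSeq, and at 2.95% of 35116 starts of all genes. The 8 starts were those of ANXA1, ANXA2, ANXA10, S100A4, S100A8, S100A9, S100A13 and S100P. For S100A13 it was not the start nearest to the 5′ end in the deposited table, and the nearest start had no TATAAA there. S100A4, S100A13 and ANXA10 were not called, so the letters did not go with a call throughout. The stretch was chosen after the positions of the motif were seen, and a match describes letters, not a site in use.

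S100A16 (ENSG00000188643, chromosome 1, 153606886 to 153613137, minus strand), a widely expressed S100 protein, was the only member called higher. Its level was 155, 154 and 160 CPM in the control samples and 203, 217 and 222 CPM in the knockdown samples. Every knockdown sample lay above every control sample, and the distance between the groups was several times the spread within them. The mean rose from 156 ± 3.08 to 214 ± 9.78 CPM (SD, n = 3 per group), a change of 37.0%. The log2 fold change was 0.45 (SE 0.040, edgeR quasi-likelihood adjusted p = 0.000106), and S100A16 was called higher in each of the 17 other fits tried, and by the criteria of the study.

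S100P (ENSG00000163993, chromosome 4, 6693878 to 6697170, plus strand) lies outside the chromosome 1 cluster and encodes a secreted ligand of RAGE that is abundant in several carcinomas. Its level was 153, 178 and 175 CPM in the control samples and 113, 123 and 136 CPM in the knockdown samples. The groups did not overlap, although the highest knockdown sample came near the lowest control sample. The mean fell from 169 ± 14.0 to 124 ± 11.7 CPM (SD, n = 3 per group). The log2 fold change was -0.44 (SE 0.074, edgeR quasi-likelihood adjusted p = 0.0025), and S100P was called lower in all 17 other fits. Its mean FPKM over the 6 samples was 272.

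S100A8 and S100A9 encode the subunits of calprotectin, an antimicrobial heterodimer best known from neutrophils and monocytes and a ligand of TLR4 and RAGE. Both fell. S100A9 (ENSG00000163220, chromosome 1, 153357854 to 153361023, plus strand) had a level of 10.6, 9.71 and 9.16 CPM in the control samples and 5.19, 7.32 and 5.70 CPM in the knockdown samples. No overlap was seen, and the log2 fold change of S100A9 was -0.69 (SE 0.14, edgeR quasi-likelihood adjusted p = 0.0063), called in all 17 other fits.

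S100A8 (ENSG00000143546, chromosome 1, 153390032 to 153391073, minus strand) was far less abundant, with 85, 76 and 45 counts across the controls and 37, 40 and 32 counts with knockdown. Its level was 1.37, 1.196 and 0.73 CPM against 0.53, 0.60 and 0.46 CPM. All controls lay above all knockdown samples, but control replicate 3 lay closer to the knockdown samples than to the other controls. The log2 fold change was -1.06 (SE 0.34, edgeR quasi-likelihood adjusted p = 0.048), just inside the threshold. The call was lost without control replicate 1 (edgeR adjusted p = 0.15), control replicate 2 (0.12), knockdown replicate 1 (0.11), knockdown replicate 2 (0.091) or knockdown replicate 3 (0.12), while the direction stayed. S100A8 also lost it in DESeq2 (adjusted p = 0.061), with library size alone (edgeR adjusted p = 0.059) and without a filter (edgeR adjusted p = 0.093), and it was called in 7 of 16 other fits. The log2 ratio of S100A9 to S100A8 was 3.20 ± 0.38 for the controls and 3.52 ± 0.19 with knockdown (SD, n = 3 per group, two-sided exact permutation p = 0.4).

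Both calprotectin genes are markers of myeloid cells, so the fixed myeloid markers were read beside them. Of 5 listed (PTPRC, CD14, LYZ, ITGAM and CSF1R), 4 were tested and 1, CSF1R, was called higher, with a log2 fold change of 0.49. Their summed level was 24.7, 26.0 and 22.5 CPM in the control samples and 34.1, 31.7 and 35.5 CPM in the knockdown samples, with CSF1R the most abundant. PTPRC, the defining leukocyte gene, did not pass the filter and had a mean level of 0.085 CPM over the controls and 0 over the knockdown samples. The sum was mostly CSF1R, with a mean of 22.6 CPM over the controls and 31.7 CPM over the knockdown samples. The other tested markers were not called and did not share a direction, with log2 fold changes of 0.85 for ITGAM (edgeR adjusted p = 0.074), 0.69 for CD14 (edgeR adjusted p = 0.51) and -1.71 for LYZ (edgeR adjusted p = 0.21). The part of these markers in the values of S100A8 and S100A9 was not tested.

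**Figure D2:**
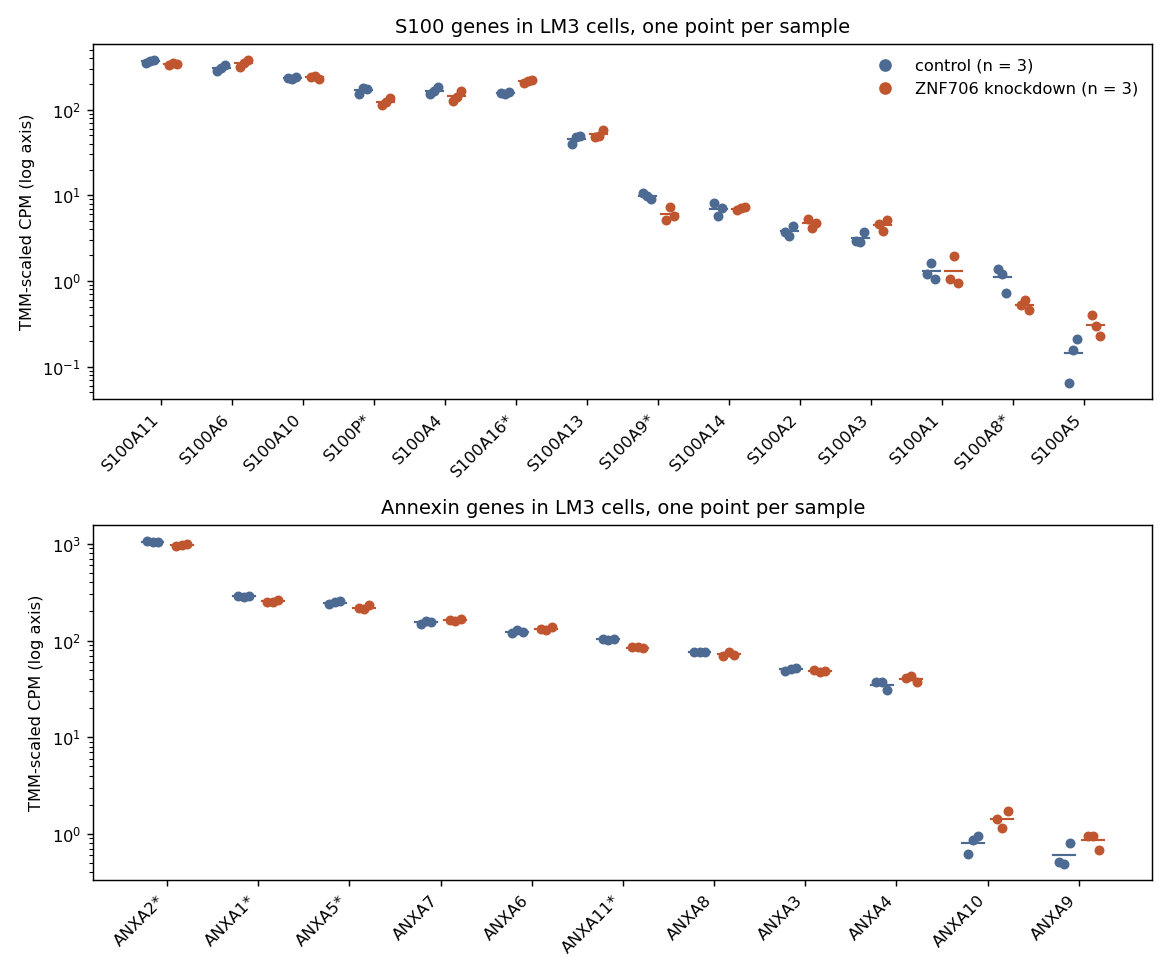
Level of each tested member in each sample, in TMM-scaled CPM on a log axis, with a line at each group mean and an asterisk for members with an adjusted p below 0.05. The 3 knockdown samples of S100A16 (203 to 222) sit above the controls (154 to 160), and those of S100P (113 to 136) sit below them (153 to 178).

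Other S100 genes were abundant and were not called. S100A11, a partner of ANXA1, had the highest mean FPKM of the S100 genes, 478, followed by S100A6 at 297, S100P at 272, S100A10 at 205, S100A4 at 144, S100A16 at 95.7, S100A13 at 19.4 and S100A9 at 12.1. For most genes of the table the authors' FPKM divides by a length close to that of all exons joined. For S100P and, less so, S100A10 the length it implies is shorter than the joined exons in GENCODE release 29, so the place of both in this order depends on the gene model. The other tested S100 genes lay between 0.245 (S100A5) and 4.76 (S100A14).

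S100A11 had a level of 353, 366 and 379 CPM in the control samples and 333, 346 and 345 CPM in the knockdown samples. The samples of the groups were apart, but the difference was small, with a log2 fold change of -0.10 (SE 0.036, edgeR quasi-likelihood adjusted p = 0.070). The adjusted p of S100A11 was 0.046 without control replicate 1 and 0.027 in DESeq2, and it was called in 5 of 17 other fits. With library size alone its log2 fold change was -0.047 (edgeR adjusted p = 0.36).

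S100A10, the light chain that pairs with ANXA2 at the membrane, had a level of 233, 231 and 241 CPM in the control samples and 240, 247 and 230 CPM in the knockdown samples. The groups overlapped throughout. The log2 fold change was 0.02 with a 95% interval of -0.06 to 0.11, so a change of S100A10 larger than those bounds was not seen.

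S100A6, or calcyclin, which binds CACYBP, had a level of 286, 305 and 331 CPM in the control samples and 317, 349 and 379 CPM in the knockdown samples. S100A4, which binds non-muscle myosin MYH9 and is known from metastasis, had a level of 153, 165 and 184 CPM in the control samples and 126, 139 and 167 CPM in the knockdown samples. The groups overlapped for both genes. The log2 fold changes were 0.18 for S100A6 (SE 0.068, edgeR adjusted p = 0.086) and -0.22 for S100A4 (SE 0.097, edgeR adjusted p = 0.15). S100A6 passed the threshold without knockdown replicate 1 (0.25 on the log2 scale, edgeR adjusted p = 0.027), and S100A4 passed it without knockdown replicate 3 (-0.34, edgeR adjusted p = 0.017). Leaving out other samples moved both the other way. S100A6 was at 0.13 on the log2 scale without control replicate 1 (edgeR adjusted p = 0.27) and 0.12 without knockdown replicate 3 (0.26). S100A4 was at -0.15 without control replicate 3 (edgeR adjusted p = 0.41) and -0.13 without knockdown replicate 1 (0.40).

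These genes varied together within a group. Replicate 1 had the lowest level of S100A4, S100A6, S100A11, S100A13 and S100P among the control samples and also among the knockdown samples, and replicate 3 had the highest level of S100A4, S100A6 and S100A13 in both groups. The log2 ratio of S100A6 to S100A4 within a sample was 0.91, 0.89 and 0.85 across the controls and 1.33, 1.33 and 1.18 with knockdown. The ratio thus spread less than either gene in the control group, with a mean of 0.88 ± 0.029 (SD, n = 3), and was higher in every knockdown sample, with a mean of 1.28 ± 0.086 (SD, n = 3). The two-sided exact permutation p was 0.1, the smallest that 3 samples against 3 allow, and 0.2 after Benjamini-Hochberg adjustment over the 4 ratios computed. The shift of the ratio combines the log2 fold changes of S100A6 (0.18) and S100A4 (-0.22), neither of them called, so it is not a separate result.

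S100A13, which takes part in the release of FGF1, had a level of 40.1, 47.8 and 49.8 CPM in the control samples and 47.9, 49.8 and 58.5 CPM in the knockdown samples. The groups overlapped, with a log2 fold change of 0.18 (SE 0.092, edgeR quasi-likelihood adjusted p = 0.19), which was 0.09 both without control replicate 1 and without knockdown replicate 3. S100A13 shares bases with S100A1 on the opposite strand and with the transcript AL162258 on its own strand. How the authors' counting handled strand is not given in the sources used here. S100A1 had a mean of 85.3 counts against 3229 for S100A13, so shared reads could weigh more on S100A1.

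The weakly expressed S100A14, S100A3, S100A2, S100A1 and S100A5 were tested and not called, with log2 fold changes between 0.01 (S100A14) and 1.08 (S100A5). S100A3 came closest, with 2.92, 2.82 and 3.75 CPM in the control samples and 4.65, 3.86 and 5.09 CPM in the knockdown samples. Its groups did not overlap, and the log2 fold change was 0.52 (SE 0.17, edgeR quasi-likelihood adjusted p = 0.054). The value became 0.66 without control replicate 3 (edgeR adjusted p = 0.043) and 0.43 without knockdown replicate 3 (0.17). S100A3 was called in 7 of 17 other fits. S100A3 shares 1930 bases with S100A4 on the same strand, and S100A4 had a mean of 10176 counts against 255 for S100A3, so reads of the shared stretch cannot be assigned to either with certainty. S100A12 and S100B had too few counts to test, with at most 3 and 6 counts in any sample.

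In all, the control and knockdown samples did not overlap for 7 of the 14 tested S100 genes and 6 of the 11 tested annexins, beside 39.4% of all tested genes. The summed level of the S100 genes was 1473 ± 72.8 CPM over the controls and 1487 ± 79.5 CPM with knockdown (SD, n = 3 per group). On this TMM scale the difference was smaller than the spread within the groups. As a share of all counts, without TMM, S100 genes held 0.1383%, 0.1446% and 0.1505% across the controls and 0.1436%, 0.1525% and 0.1583% with knockdown, and there too the groups overlapped.

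The 14 S100 genes of chromosome 1 lie between 151982915 and 153632039, together with 10 other genes of the table. Among the 13 tested S100 genes there, S100A16 was called higher, S100A9 and S100A8 were called lower, and the median log2 fold change was 0.02. S100A9 and S100A8 flank S100A12, which had next to no counts, so the falls lay in neighbouring expressed genes. S100A16 lies between S100A2 and S100A14, neither of which was called. The other genes of the stretch, which include the epidermal genes FLG, HRNR, TCHH, CRNN and LCE5A, had at most 9 counts in any sample for those named, and of the 2 that could be tested none was called.

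**Figure D3:**
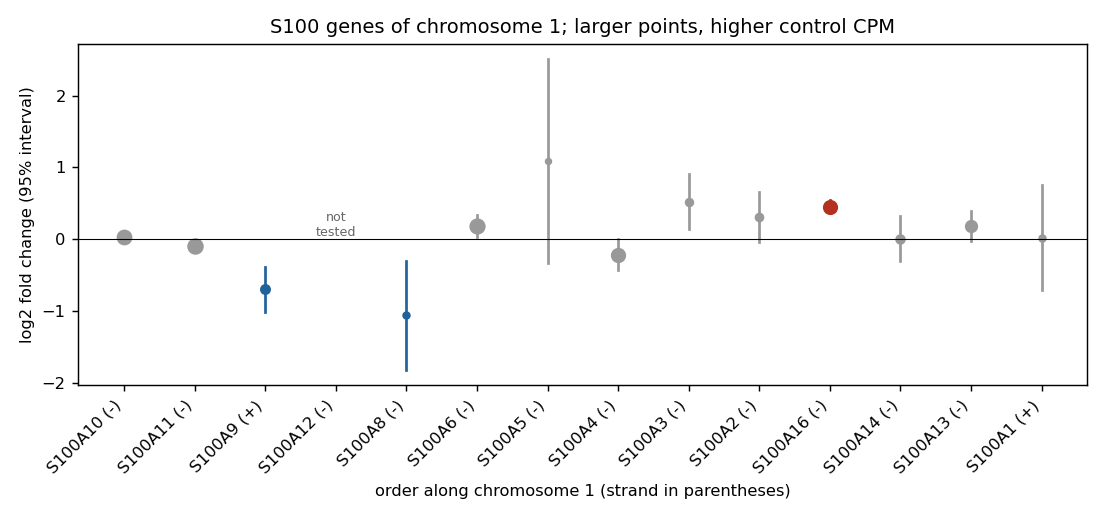
Log2 fold change with its 95% interval for the S100 genes of chromosome 1 in their order along the chromosome, with larger points for higher control levels and the strand in parentheses. S100A9 (-0.69) and S100A8 (-1.06) lie below 0 on either side of the untested S100A12, and S100A16 (0.45) lies above it between S100A2 and S100A14.

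Among the annexins, ANXA11 had the clearest difference. ANXA11 (ENSG00000122359, chromosome 10, 80150889 to 80205572, minus strand) tethers RNA granules to lysosomes and takes part in cytokinesis. Its level was 104, 102 and 103 CPM in the control samples and 85.0, 85.9 and 83.0 CPM in the knockdown samples. Both groups were tight and far apart. The mean fell from 103 ± 0.84 to 84.7 ± 1.49 CPM (SD, n = 3 per group), with a log2 fold change of -0.28 (SE 0.033, edgeR quasi-likelihood adjusted p = 0.000424), and ANXA11 was called lower in all 17 other fits at an adjusted p below 0.05. Its log2 fold change lies inside the 0.3 that the criteria of the study require, so by those it was not called, and the same holds for ANXA1, ANXA5 and ANXA2.

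ANXA1 (ENSG00000135046, chromosome 9, 73151865 to 73170393, plus strand), a glucocorticoid-induced inhibitor of inflammation that signals through the receptor FPR2, had a level of 286, 283 and 289 CPM in the control samples and 253, 251 and 263 CPM in the knockdown samples. The groups did not overlap. The log2 fold change was -0.16 (SE 0.032, edgeR quasi-likelihood adjusted p = 0.0063). ANXA1 was called lower in 16 of 17 other fits, and with each library's trend on GC content removed the log2 fold change was -0.08 (edgeR adjusted p = 0.12).

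ANXA5 (ENSG00000164111, chromosome 4, 121667946 to 121696995, minus strand), known for its binding to exposed phosphatidylserine on dying cells, had a level of 238, 248 and 255 CPM in the control samples and 217, 212 and 231 CPM in the knockdown samples. The groups did not overlap, and the log2 fold change was -0.17 (SE 0.042, edgeR quasi-likelihood adjusted p = 0.017). The call was lost without control replicate 2 (edgeR adjusted p = 0.059), control replicate 3 (0.068), knockdown replicate 1 (0.055) or knockdown replicate 2 (0.090). ANXA5 also lost it with library size alone (edgeR adjusted p = 0.062) and in limma-trend on log2(FPKM + 0.1) (0.068) or log2(FPKM + 1) (0.066), and it was called in 10 of 17 other fits.

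ANXA2 (ENSG00000182718, chromosome 15, 60347134 to 60402883, minus strand), which binds S100A10 and serves as a docking site for plasminogen and its activator, was the most abundant annexin, with a mean FPKM of 101. Its level was 1061, 1052 and 1045 CPM in the control samples and 944, 969 and 1008 CPM in the knockdown samples. The groups did not overlap, yet the log2 fold change was small, -0.11 (SE 0.030, edgeR quasi-likelihood adjusted p = 0.024). The call was lost without control replicate 1 (edgeR adjusted p = 0.071), control replicate 2 (0.074), knockdown replicate 1 (0.077) or knockdown replicate 2 (0.11), and it held in 6 of 17 other fits. With library size alone the log2 fold change of ANXA2 was -0.06 (edgeR adjusted p = 0.19), and in the limma-trend fits of FPKM it was also -0.06 (adjusted p = 0.17 to 0.21). The copy ANXA2P2, whose reads the counting may have shared with ANXA2, had a mean of 3349 counts, and its log2 fold change was -0.15 (edgeR adjusted p = 0.026).

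Ratios within the known pairs were compared sample by sample. The log2 ratio of S100A10 to ANXA2 was -2.16 ± 0.042 for the controls and -2.03 ± 0.092 with knockdown (SD, n = 3 per group, two-sided exact permutation p = 0.2). The log2 ratio of S100A11 to ANXA1 was 0.36 ± 0.045 for the controls and 0.42 ± 0.041 with knockdown (SD, n = 3 per group, two-sided exact permutation p = 0.1, the smallest possible, and 0.2 adjusted over the 4 ratios). The highest control sample and the lowest knockdown sample of this ratio were both at 0.39, so the groups nearly touched.

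ANXA7, ANXA6 and ANXA8 were abundant and were not called. ANXA7, or synexin, which promotes membrane fusion, had a level of 149, 161 and 155 CPM in the control samples and 165, 160 and 168 CPM in the knockdown samples. ANXA6, the annexin with a duplicated core, had 119, 128 and 122 CPM in the control samples and 131, 128 and 138 CPM in the knockdown samples. On this TMM scale the groups overlapped for both genes, with log2 fold changes of 0.09 for ANXA7 (SE 0.039, edgeR adjusted p = 0.15) and 0.10 for ANXA6 (SE 0.042, edgeR adjusted p = 0.11). Scaled by library size alone, both were called higher, ANXA7 by 0.14 (edgeR adjusted p = 0.026) and ANXA6 by 0.16 (edgeR adjusted p = 0.022), as they were in the limma-trend fits of FPKM. The authors' FPKM did not overlap between the groups, at 45.3 to 48.5 against 50.04 to 52.3 for ANXA7 and 18.9 to 20.2 against 20.9 to 22.4 for ANXA6.

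ANXA8 had a level of 76.2, 75.3 and 75.4 CPM in the control samples and 70.1, 75.5 and 70.2 CPM in the knockdown samples. The log2 fold change was -0.07 (SE 0.040, edgeR adjusted p = 0.24), and knockdown replicate 2 lay among the controls. Its near-identical copy ANXA8L1 had a mean of 7230 counts and a log2 fold change of -0.21 (SE 0.047, edgeR adjusted p = 0.010), and since reads of the copies can be exchanged in counting, the values of both genes are uncertain.

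ANXA3, ANXA4, ANXA9 and ANXA10 were tested and not called, with log2 fold changes between -0.06 (ANXA3) and 0.82 (ANXA10). ANXA10 rests on few counts, with 0.61, 0.87 and 0.94 CPM in the control samples and 1.41, 1.16 and 1.71 CPM in the knockdown samples. Its groups did not overlap (SE 0.28, edgeR quasi-likelihood adjusted p = 0.064). ANXA4 overlaps AAK1 on the opposite strand, which had more counts than ANXA4 itself, and ANXA13 had at most 17 counts and was not tested. By mean FPKM the order of the annexins was ANXA2 (101), ANXA5 (69.9), ANXA1 (53.3), ANXA7 (49.0), ANXA6 (20.5), ANXA8 (13.0), ANXA11 (9.65), ANXA3 (8.82), ANXA4 (2.997), ANXA10 (0.53) and ANXA9 (0.40).

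The summed annexin level was 2120, 2139 and 2130 CPM in the control samples and 1958, 1974 and 2049 CPM in the knockdown samples. On this TMM scale every knockdown sample lay below every control sample, and ANXA2 was the largest contributor. As a share of all counts, without TMM, annexins held 0.209%, 0.210% and 0.207% across the controls and 0.200%, 0.201% and 0.208% with knockdown, so there knockdown replicate 3 lay above control replicate 3 and the groups overlapped.

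**Figure D4:**
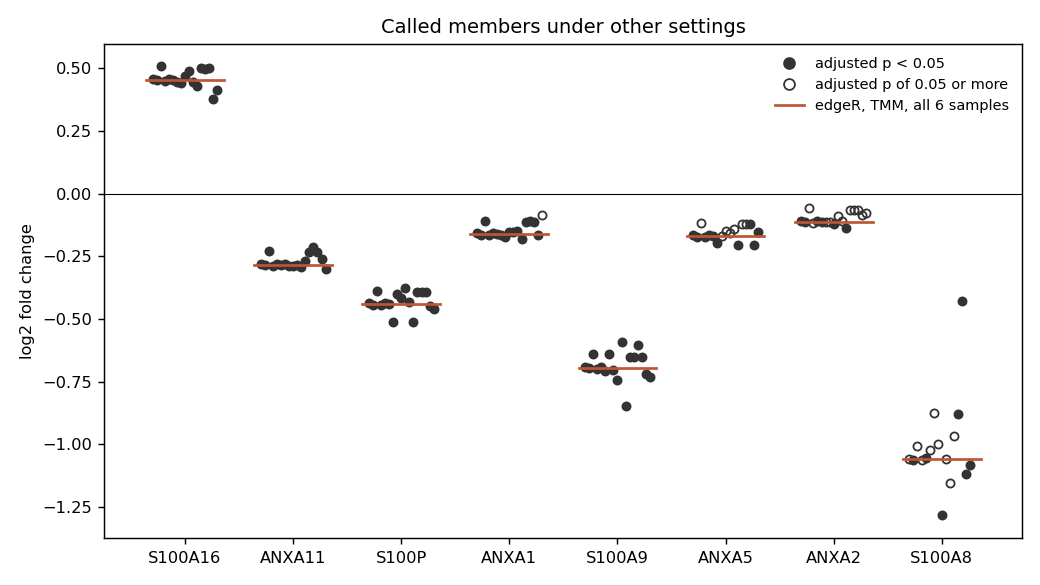
Log2 fold change of the 8 called members under each other fit (points, filled where the adjusted p was below 0.05), with the value from edgeR with TMM and all 6 samples as a line. S100A16, ANXA11, S100P and S100A9 are filled throughout, while ANXA2 is filled in 6 of 17 fits and S100A8 in 7 of 16.

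Receptors and partners of the families were read from a list of 38 symbols, of which 33 were in the table and 29 were tested. Of these, 4 were called higher, beside 10.4% of all tested genes, and 2 were called lower, beside 12.4%, and their median log2 fold change was 0.00074.

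AHNAK2, a giant scaffold protein related to the S100A10 and ANXA2 partner AHNAK, rose from 59.1 ± 9.19 to 107 ± 9.33 CPM (SD, n = 3 per group), by 0.86 on the log2 scale (edgeR adjusted p = 0.000388), whereas AHNAK stood at 0.10 on that scale (edgeR adjusted p = 0.31). CD68, a lysosomal membrane glycoprotein that macrophages make in quantity, rose by 0.64 on the log2 scale (edgeR adjusted p = 0.000106). PLAT, the tissue plasminogen activator that ANXA2 docks, rose by 0.56 (edgeR adjusted p = 0.041). MDM2, a ubiquitin ligase, fell by 0.19 (edgeR adjusted p = 0.0039), and CAPZA1, an actin-capping subunit, fell by 0.12 (edgeR adjusted p = 0.018).

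Other calcium-binding families formed a second list of 46 symbols, of which 44 were in the table and 35 were tested. In it 7 genes were called higher, beside 10.4% of all tested genes, and 7 lower, beside 12.4%, and the median log2 fold change was 0.02. The named changes with the largest size were those of EFHD1, a mitochondrial EF-hand protein (1.13, edgeR adjusted p = 0.025), NUCB2, the nesfatin precursor (-0.44, edgeR adjusted p = 0.0027), the copine CPNE1 (0.41, edgeR adjusted p = 0.0011), the calpain CAPN1 (0.29, edgeR adjusted p = 0.00050) and the small calpain subunit CAPNS1 (0.28, edgeR adjusted p = 0.0019). CAPN2, the other ubiquitous calpain, was called in the opposite direction to CAPN1, with a level of 448, 443 and 444 CPM in the control samples and 380, 380 and 369 CPM in the knockdown samples (-0.24, edgeR adjusted p = 0.00050). CAPN2 was named after its value was seen.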

How the data were processed

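RNA-seq of 3 vector control and 3 ZNF706 knockdown samples of LM3 cells was used. The submitters' processing notes name cutadapt 1.9, FastQC and GRCh38, and the methods of the study state that reads were mapped with HISAT2. The authors deposited a whole-number count per gene without normalization and FPKM values, which they scaled to length and library size. The counting program, its use of strand and the annotation are not given in the sources used here. Positions of 99.87% of 32092 shared genes overlapped GENCODE release 29.

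Genes were filtered with filterByExpr (18390 of 33007 kept), given TMM scaling, and compared by the quasi-likelihood test (glmQLFit, glmQLFTest) in edgeR 4.0.16 under R 4.3.3, group being the only term and Benjamini-Hochberg adjustment over all tested genes. A call is an adjusted p below 0.05. Intervals are 95% t intervals of that fit. Ratios of 2 members were compared with exact permutation tests. Total counts of 62684076 to 69057423 per sample set the precision, and p-values and SDs cover the spread between samples. Between samples the chi-square value per gene, over genes averaging 50 counts or more, was 12.8 to 22.2 within groups and 45.9 to 53.9 between them, so replicates differed by more than sampling noise. The fit was tested on simulated data.

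The members and lists were chosen with earlier results of these data known. Named with values in every sample were called members and tested members with a mean FPKM of at least 10, and of each list up to 5 called genes with the largest change. The result for 1 gene of the receptor and partner list is not reported here. The lists were receptors and partners, other calcium-binding families, and hepatocyte, epithelial, myeloid, fibroblast and endothelial markers. Alternatives were DESeq2 1.42.0, DESeq2's size factors, library size alone, no filter, a minimum mean count of 50, a replicate block, each sample left out, a length trend removed, limma-trend (limma 3.58.1) on log2(FPKM + 0.1) or log2(FPKM + 1) or for a mean FPKM of at least 1, the criteria of the study, and, chosen after seeing the data, a GC trend removed. The promoter stretches and the motif were also chosen after seeing the data.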

Additional observations from a re-analysis of the deposited data

How the results depend on the processing

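S100A16, S100P, S100A9 and ANXA11 kept their direction and their call in each of the 17 other fits. By the criteria of the study, which set a fold as well, the first 3 kept it and ANXA11 did not. Without filter, 1253 genes were called higher. Scaling by library size alone gave 2742 genes higher and 1518 lower, 3 S100 genes higher, and 4 annexins higher and 2 lower. DESeq2 called 1 annexin higher, beside 2083 genes higher and 2355 lower. A mean count of at least 50 called 2 S100 genes higher, beside 2104 genes higher and 2351 lower. Limma-trend on log2(FPKM + 0.1) gave 2276 genes higher and 1372 lower, 2 S100 genes higher, and 3 annexins higher and 2 lower. On log2(FPKM + 1) it gave 2349 genes higher and 1374 lower, 3 S100 genes higher, and 3 annexins higher and 2 lower. For a mean FPKM of at least 1 it called 3 S100 genes and 2 annexins higher, beside 2279 genes higher and 1539 lower. With the length trend removed, 5 S100 genes were lower and 1 annexin higher, beside 1976 genes higher and 2392 lower. With the GC trend removed, which was chosen after seeing the data, 2 annexins were higher and 2 lower, beside 1896 genes higher and 2037 lower. By the criteria of the study, applied to the edgeR fit, 1767 genes were higher and 1081 lower. Those criteria called 2 S100 genes and 1 annexin higher, 0 annexins lower and 4 genes of the other calcium-binding list. The cause of these differences was not tested.

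Leaving out each sample in turn gave 1148 to 1485 genes higher, 1500 to 1939 genes lower, 1 to 2 S100 genes higher, 2 to 3 lower, 2 to 4 annexins lower and 8 to 14 genes of the other calcium-binding list called. Knockdown replicate 2 moved the total counts most.

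Over all tested genes, samples with the same number did not deviate together (correlations of 0.034, -0.036 and -0.016), and nothing in the labels pairs them, although S100A4, S100A6 and S100A13 ran in the same order of numbers in both groups. With the replicate block, 4 S100 genes were called higher and 4 lower, and 1 annexin was called higher, beside 1967 genes higher and 2394 lower. Under the replicate block the edgeR adjusted p was 0.0033 for S100A6, 0.0049 for S100A4, 0.034 for S100A11 and S100A13, 0.038 for S100A3, 0.023 for ANXA4 and 0.066 for S100A8.

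Signs turned only for uncalled genes near 0. ANXA3 was 0.0050 on the log2 scale with the GC trend removed. S100A10 was -0.036 with the length trend and -0.016 with the GC trend removed. S100A14 ran from -0.12 (without control replicate 2) to 0.12 (without control replicate 1) as each sample was left out, was -0.022 without knockdown replicate 3, and was -0.071 with the length trend and -0.018 with the GC trend removed. S100A1 ran from -0.37 to 0.23 (without control replicate 2) in the same way, was -0.022 with the replicate block, -0.035 without control replicate 1, -0.11 without control replicate 3, -0.37 without knockdown replicate 2 and -0.034 with the GC trend removed.

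Depth limits S100A8, S100A5, S100A1, ANXA9 and ANXA10, which rest on few counts. Reads cannot be assigned with certainty between S100A3 and S100A4, ANXA2 and ANXA2P2, or ANXA8 and ANXA8L1. The same holds for S100A1 and S100A13 if the counting ignored strand.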

Other observations

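Markers of other cell types were read beside the members, and their part in the members' values was not tested. All 10 hepatocyte markers passed the filter and had log2 fold changes below 0, of which APOB (-0.98, edgeR adjusted p = 0.021) and SERPINA1 (-1.47, edgeR adjusted p = 0.0034) were called. Their summed level was 16.6, 39.1 and 44.5 CPM in the control samples and 20.2, 21.4 and 10.6 CPM in the knockdown samples, so the groups overlapped. None of 5 epithelial markers was called, and their summed level was 2503 ± 86.4 CPM over the controls and 2447 ± 66.9 CPM with knockdown (SD, n = 3 per group), mostly from KRT8 and KRT18. The weakly expressed epithelial markers had log2 fold changes above 0, namely 0.83 for KRT19 (edgeR adjusted p = 0.054), 0.59 for CDH1 (edgeR adjusted p = 0.072) and 0.75 for EPCAM (edgeR adjusted p = 0.56).

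Of 5 fibroblast markers 4 were tested, and 2 were called higher, beside 10.4% of all tested genes. These were COL1A1 (0.20, edgeR adjusted p = 0.0023) and PDGFRB (0.68, edgeR adjusted p = 0.0030). The other 2 were not called and lay below 0, COL3A1 at -2.04 (edgeR adjusted p = 0.34) and DCN at -0.04 (0.97). COL3A1 had 336, 0 and 48 counts across the controls and 42, 61 and 0 counts with knockdown. The summed level of the fibroblast markers was 82.4 ± 3.68 CPM over the controls and 95.2 ± 0.95 CPM with knockdown (SD, n = 3 per group), with COL1A1 the most abundant. DCN, a defining fibroblast gene, was at 0.49 CPM over the controls and 0.48 CPM with knockdown. Of 4 endothelial markers 2 were tested, and 1, CDH5, was called lower (-0.70, edgeR adjusted p = 0.0014), beside 12.4% of all tested genes. PECAM1 lay on the other side of 0 and was not called (0.15, edgeR adjusted p = 0.54). The summed level of the endothelial markers was 15.0 ± 1.36 CPM over the controls and 12.3 ± 1.00 CPM with knockdown (SD, n = 3 per group).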
